A study of Mus musculus with 23 samples.

Results

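Hearts of triple-knockout mouse embryos, in which the kinase genes Grk2, Grk5 and Grk6 were all targeted on both alleles, were compared with wild-type hearts at embryonic day 13.5. The comparison took 15 of the 23 libraries of the series, chosen by the genotype labels: 7 triple-knockout and 8 wild-type. Wild-type embryos carried unmodified alleles of the 3 kinase genes and no Cre. Triple-knockout embryos were floxed for Grk2 and Grk5 on both alleles, lacked Grk6 on both alleles and carried the Nkx2.5Cre driver. The 8 remaining libraries came from haploinsufficient embryos, which kept a wild-type Grk2 allele beside the floxed one and were otherwise labelled like the triple knockout. All embryos carried the strain label C57BL/6. The floxed genes are lost only in cells in which the driver has been active, the cardiac progenitor lineage, whereas Grk6 is missing in every cell of the heart. Cre, the driver allele and the loss of the kinases came together in the triple knockout, so their parts in any difference from wild type cannot be told apart in this comparison.

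G-protein coupled receptor kinases phosphorylate activated receptors, after which arrestins bind the receptor, uncouple it from its G protein and carry it into the cell. Grk2, Grk5 and Grk6 are the widely expressed members of the family. In the embryonic heart, receptor signals bear on contraction and growth of the muscle. They also bear on Hedgehog signalling, where kinases of this family act on Smoothened, and on formation of the atrioventricular canal, the subject of the series.

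The targeted genes and Cre were read first. Cre was at 8.23 to 24.96 CPM (counts relative to the size of the library) in triple-knockout libraries and at 0.859 CPM or less in wild type. Grk2 appears in the table as Adrbk1, an older symbol, and its exons summed to 48.9 to 60.5 CPM in wild-type libraries and 26.4 to 42.8 CPM in triple-knockout libraries. Grk5 exons summed to 20.3 to 27.4 CPM in wild type and to 10.9 to 19.7 CPM in the triple knockout. On exons 3 to 9 of Grk6, 852 reads were counted over the wild-type libraries and 4 over the triple-knockout libraries. Reads on other Grk6 exons remained: all its exons summed to 26.25 to 35.57 CPM in wild type and 9.65 to 20.71 CPM in the triple knockout. Nkx2-5, the transcription factor gene of the cardiac lineage that lends the driver its name, lay between 82.9 and 114 CPM in wild type and between 26.5 and 61.8 CPM in the triple knockout. Total counts ran from 3838166 to 14050559 per wild-type library and from 6657734 to 13864731 per triple-knockout library, so that a gene with no read could be present at up to 0.199 to 0.771 CPM (3 counts of the library). The summed level of 36 sarcomere genes, which define heart muscle, was 62690 to 117400 CPM in every library of both groups. Whether every library came from its own embryo is not stated in the labels, so the spread behind the p-values is that between these libraries and may be technical.

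Triple-knockout replicates 1, 3 and 7 stood apart in markers of tissues that lie beside the heart. The marker score was the mean log2(CPM + 1) of 33 lung, foregut, liver and thymus genes, set against the wild-type mean. Of the 33, 22 passed the expression filter. The score was 1.43, 0.87 and 1.49 in these replicates, while no wild-type library was above 0.80. The other 4 triple-knockout libraries lay between -0.10 and 0.52. Replicates 1 and 7 also had the lowest sarcomere levels, 63730 and 62690 CPM against 78050 or more in every wild-type library. Counts below are therefore also given without replicates 1, 3 and 7, together with the 3 haploinsufficient libraries above the wild-type range. Any part of these tissues in a result was not tested. Fewer cells of a type and less RNA per cell cannot be told apart in whole hearts.

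Of 13941 genes tested, 165 changed (1.18%), 68 higher (0.488%) and 97 lower (0.696%), at an adjusted p under 0.05 in the edgeR quasi-likelihood test. An unadjusted p under 0.05 was reached by 1504 of the 13941. Called and unadjusted counts of the lists below stand beside these shares over all genes. Among the 165, 138 changed by at least 0.5 and 57 by at least 1 on the log2 scale, and the median difference over all genes tested was 0.01. The libraries of the 2 groups did not overlap for 83 of the called genes, against 131 of all genes (0.94%). Without the libraries of high marker score 82 genes were called, 71 of them among the 165, and all 165 kept their direction. The remaining libraries had also entered the fit that chose the 165. A kept direction in part of the libraries, here and below, is therefore no independent test. In a fit of wild-type and triple-knockout libraries alone, 295 genes were called, 160 of them among the 165.

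**Figure D1:**
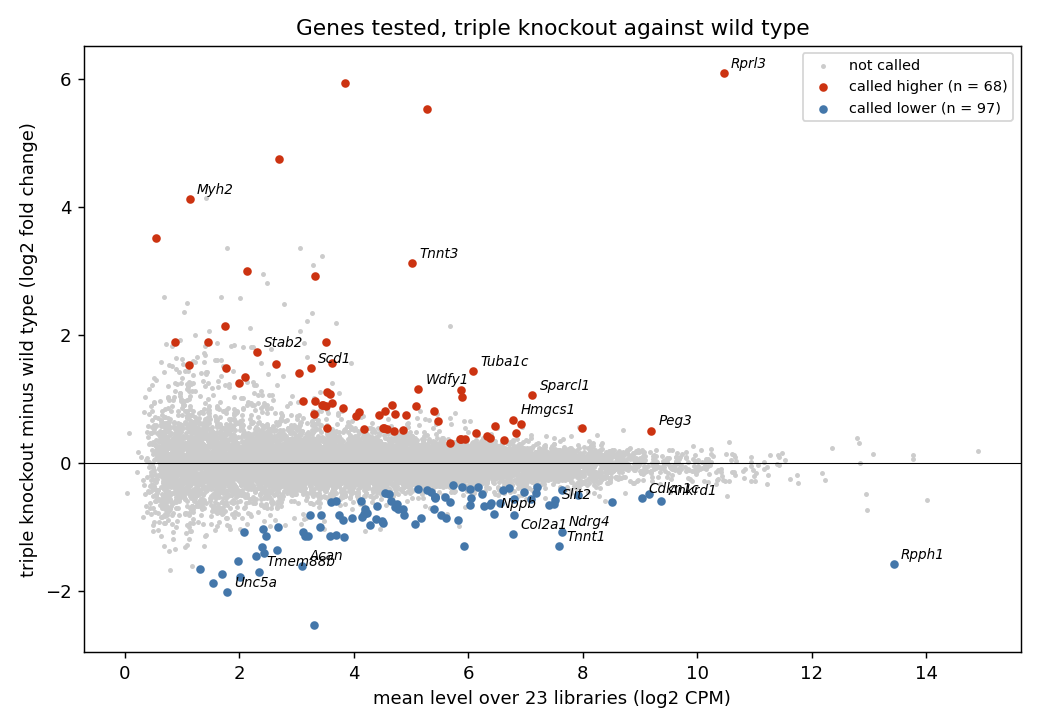
Each point is a gene, placed by its mean level (log2 CPM, horizontal) and by its log2 difference between triple knockout and wild type (vertical), with called genes coloured by direction. Of the called genes with a name on the plot, Rprl3, Myh2 and Tnnt3 lie highest and Unc5a lowest, and 57 of the 165 differ by at least 1 on the log2 scale.

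Troponin T anchors the troponin complex to the thin filament, and its 3 genes are named for slow skeletal, cardiac and fast skeletal muscle. Tnnt3, the fast skeletal form, ran from 3.49 through a median of 6.53 to 9.77 CPM in wild type. It ran from 26.3 through 61.2 to 91.2 CPM in the triple knockout. The groups were well apart, and the triple-knockout libraries were themselves widely spread. Tnnt3 rose 8.72-fold (log2 difference 3.12 ± 0.26 SE, edgeR adjusted p = 6.47e-09). Tnnt1, the slow skeletal form, moved the other way, from 231, 304 and 339 CPM (lowest, median and highest) to 71.5, 124 and 159 CPM. Each triple-knockout library lay below each wild-type library, and replicates 7, 1 and 2 were the lowest. Tnnt1 fell 2.46-fold (-1.30 ± 0.16, edgeR adjusted p = 6.30e-06). Per kilobase of exon, the level of Tnnt1 went from 315 to 129 CPM and that of Tnnt3 from 5.95 to 52.1 CPM, so that Tnnt1 remained the more abundant of these genes.

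Tnni2, the inhibitory troponin of fast skeletal muscle, lies beside Tnnt3 on chromosome 7. It was at 22.7, 26.1 and 33.2 CPM in wild type and at 28.2, 49.9 and 76.6 CPM in the triple knockout. Replicates 1 and 7 of the triple knockout lay within the wild-type range and the other 5 libraries above it. Tnni2 rose (0.82 ± 0.17, edgeR adjusted p = 0.00726). Myh2, a fast skeletal myosin heavy chain, had at most 0.543 CPM in any wild-type library, 4 of which held no count, and 1.28, 2.07 and 6.84 CPM in the triple knockout. Myh2 passed the expression filter only through triple-knockout and haploinsufficient libraries, in which it was higher, so its place among the genes tested rests on those groups. It passed the test with a fitted log2 difference of 4.13 ± 0.63, a size that depends on the prior count (edgeR adjusted p = 0.000297). Of 23 skeletal muscle isoforms and regulators tested, these 3 rose and Tnnt1 fell, and all 4 were also called without the libraries of high marker score. The median over the genes tested was -0.03. The mean level by library of all 37 members did not differ between the groups (difference 0.09 log2, two-sided exact permutation p = 0.470, adjusted p = 0.575 over 11 marker lists).

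**Figure D2:**
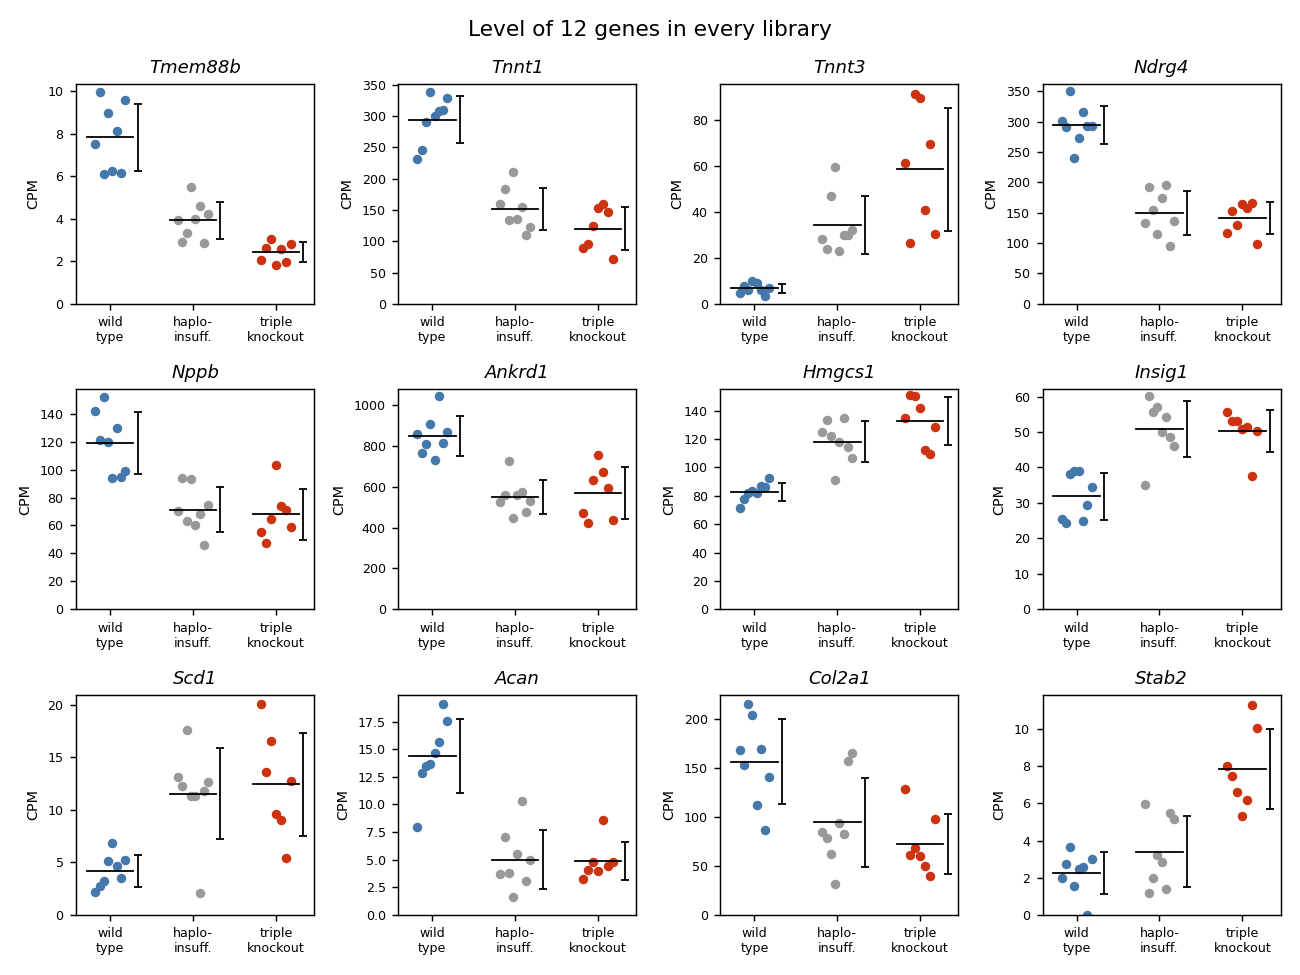
Levels of 12 genes in CPM (vertical, linear scale from 0) in every wild-type, haploinsufficient and triple-knockout library; points are libraries, lines group means and bars SD. Tmem88b, Tnnt1 and Ndrg4 lie below the wild-type range in every triple-knockout library, and Tnnt3, Hmgcs1 and Stab2 above it.

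Genes of the working sarcomere gave a single call (2.78% of the list, beside 1.18% over all genes). Csrp3, a muscle LIM protein of the Z-disc, was at 596, 658 and 773 CPM in wild type and 324, 465 and 678 CPM in the triple knockout, and was the only called gene of 36 (-0.47 ± 0.12, edgeR adjusted p = 0.0467). The overlap came from replicate 4, and replicates 1 and 7 were the lowest. Csrp3 was called in 2 of 15 fits that each left out a single library. Smpx, a small stretch-responsive muscle protein, did not overlap between groups (176 to 206 against 80.6 to 176 CPM) and did not pass the test (-0.54 ± 0.16, edgeR adjusted p = 0.117). Tcap, which caps titin at the Z-disc, was at -0.47 ± 0.15 (edgeR adjusted p = 0.147). The median of the list was -0.15, and 0.06 without the libraries of high marker score.

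Natriuretic peptide and stretch genes are raised by heart muscle under load. Of 20 tested, 7 fell and none rose, 13 differences were negative and the median was -0.28, while the summed level of the list had a median of 19620 CPM in wild type and 19670 CPM in the triple knockout. Nppb, the B-type natriuretic peptide, was at 94.1, 120.4 and 152 CPM in wild type and at 47.7, 64.6 and 104 CPM in the triple knockout. Only replicate 4 reached the wild-type range. Nppb fell 1.73-fold (-0.79 ± 0.15, edgeR adjusted p = 0.00413). Npr3, the receptor that clears natriuretic peptides and marks the endocardium, fell by 0.46 ± 0.10 (154 to 197 against 116 to 159 CPM, edgeR adjusted p = 0.0161).

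Ankrd1, a stretch-induced partner of titin and a target of YAP, was at 730.4, 835 and 1046 CPM in wild type and 422, 595 and 755 CPM in the triple knockout. Replicate 4 alone overlapped the wild-type range. Ankrd1 fell 1.5-fold (-0.58 ± 0.12, edgeR adjusted p = 0.0109). The LIM-domain genes Fhl1 and Fhl2, whose proteins sit on titin, fell by 0.55 ± 0.09 and 0.64 ± 0.12 (edgeR adjusted p = 0.00119 and 0.00396). Rcan1, an inhibitor and target of calcineurin, fell by 0.55 ± 0.10 with no overlap between 147 to 195 and 84.7 to 139 CPM (edgeR adjusted p = 0.00172). Csrp3 is the seventh. The direction of all 7 was the same within library IDs 1 to 12 and 19 to 30, and none was called without the libraries of high marker score, where the median was -0.09 and the differences of these 7 ran from -0.63 for Nppb to -0.32 for Csrp3.

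Ventricular and trabecular genes overlapped with that list. Of 26 tested, 4 fell and none rose (median -0.16): Nppb, Ankrd1, Kcne1 and Slit2. Kcne1, the accessory subunit of the slow delayed rectifier potassium channel, was at 32.3, 38.7 and 42.9 CPM in wild type and 13.8, 23.5 and 28.5 CPM in the triple knockout. Its groups did not overlap, and replicates 7 and 1 were the lowest. Kcne1 fell 1.75-fold (-0.81 ± 0.16, edgeR adjusted p = 0.00588) and was the only called gene of 34 ion channels and connexins (2.94%, beside 1.18% over all genes). Slit2, a secreted ligand of Robo receptors, went from 199.5 to 303 CPM down to 132 to 181 CPM (-0.64 ± 0.14, edgeR adjusted p = 0.0161). Kcne1 and Slit2 were also called without the libraries of high marker score.

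Calcium cycling, cAMP signalling and atrial lists gave 1 call each (2.94%, 2.56% and 4.17%, beside 1.18% over all genes), which says little of the lists. Ryr3, a calcium release channel of the sarcoplasmic reticulum, was at 57.2, 92.6 and 114 CPM in wild type and 34.4, 47.6 and 59.2 CPM in the triple knockout (-0.88 ± 0.16, edgeR adjusted p = 0.00303). It was the only called gene of 34 for calcium cycling. Bves, a cAMP-binding membrane protein of the Popeye family, was at 51.2, 62.2 and 92.7 CPM in wild type and 24.5, 40.0 and 42.7 CPM in the triple knockout, without overlap. Bves fell 1.75-fold (-0.81 ± 0.17, edgeR adjusted p = 0.00863). Of 24 atrial and sinus node genes only Angpt1 changed, the ligand of the endothelial receptor Tek, which fell by 0.85 ± 0.14 from 50.0 to 79.7 CPM down to 28.4 to 46.9 CPM (edgeR adjusted p = 0.000860). Tek itself was at -0.32 ± 0.09 (edgeR adjusted p = 0.0867).

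**Figure D3:**
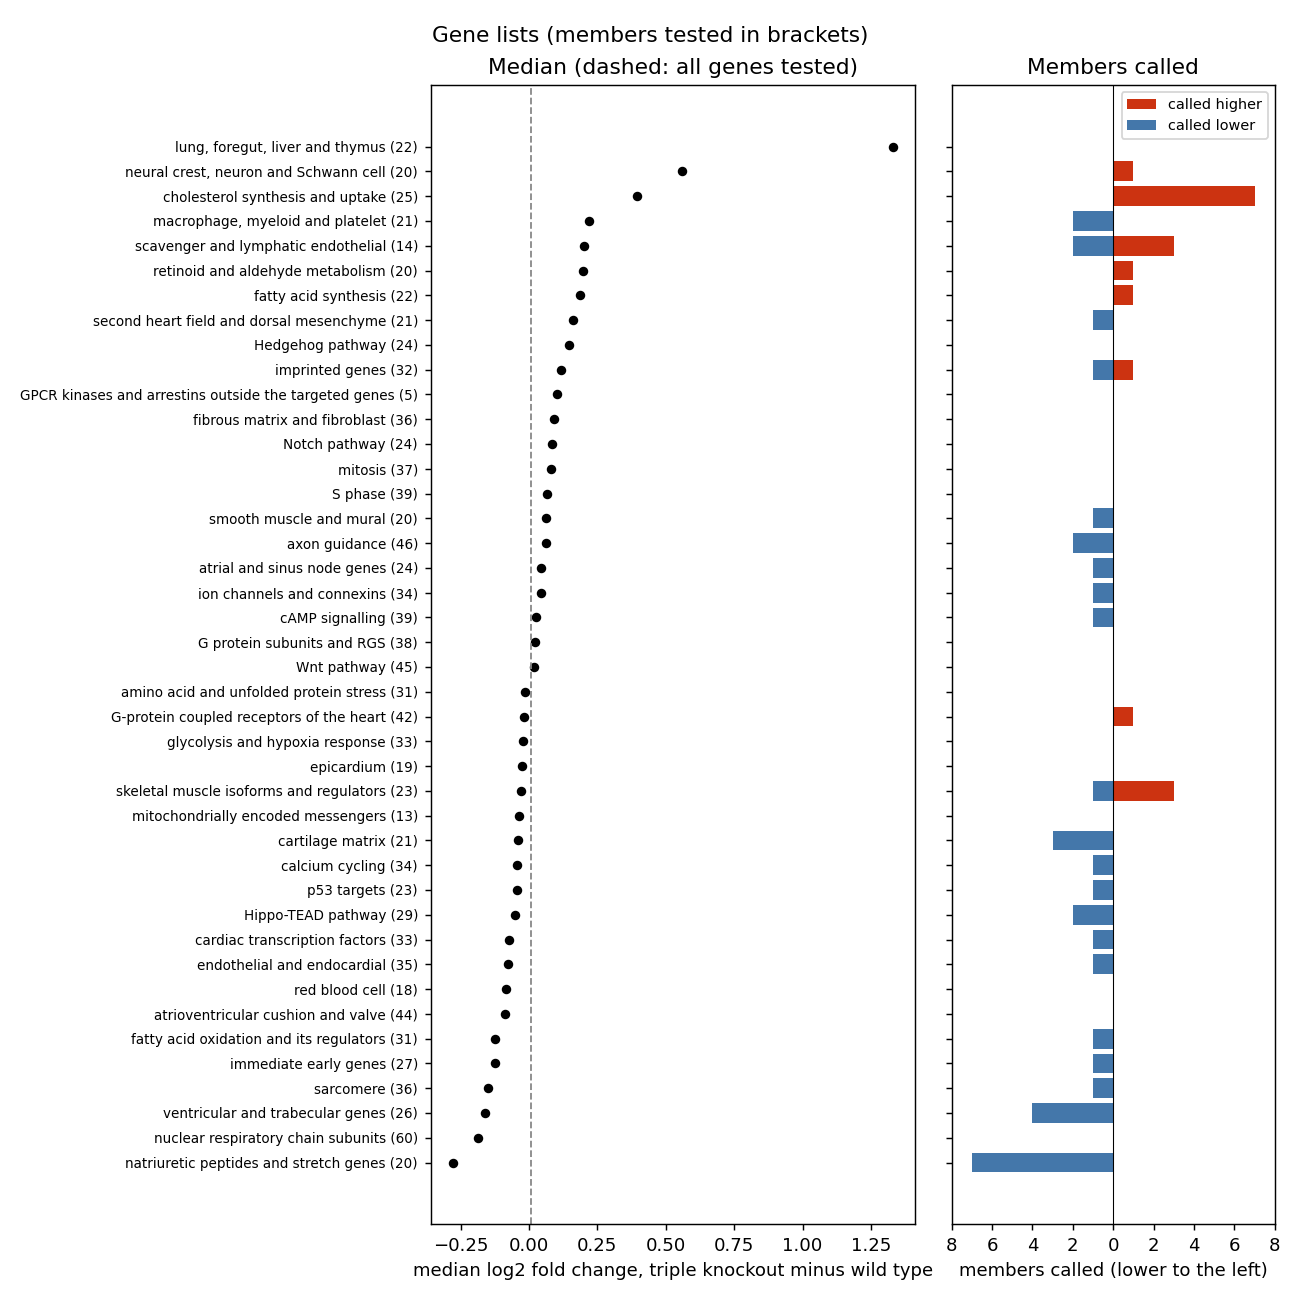
For gene lists, the left panel gives the median log2 difference between triple knockout and wild type (dot; dashed line, median of all genes tested) and the right panel the number of called members that rose or fell. Cholesterol synthesis holds 7 members that rose and none that fell, and the natriuretic and stretch list 7 that fell and none that rose.

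The cholesterol pathway builds sterols from acetyl-CoA, and cells switch its genes on through the SREBP2 transcription factor when membrane sterol is low. Of 25 genes tested, 7 rose and none fell, 23 had a positive difference and the median was 0.40. The summed level of the list lay between 909 and 1028 CPM in wild-type libraries and between 1065 and 1352 CPM in triple-knockout libraries, with replicate 6 nearest to the wild-type range.

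Hmgcs1, which makes HMG-CoA at the entry to the pathway, was at 71.4, 82.7 and 92.5 CPM in wild type and 109, 135 and 151 CPM in the triple knockout. No libraries overlapped. Hmgcs1 rose 1.60-fold (0.68 ± 0.09, edgeR adjusted p = 3.42e-05). Insig1, the sterol sensor that holds SREBP in the endoplasmic reticulum and is itself an SREBP target, was at 24.2, 32.0 and 39.1 CPM in wild type and 37.7, 51.5 and 55.8 CPM in the triple knockout. Replicate 6 of the triple knockout overlapped the wild-type range. Insig1 rose 1.58-fold (0.66 ± 0.12, edgeR adjusted p = 0.00294).

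Further called genes of the list were the sterol carrier gene Stard4 (0.55 ± 0.13), lanosterol synthase Lss (0.52 ± 0.12), the isomerase gene Idi1 (0.51 ± 0.12) and squalene synthase Fdft1 (0.38 ± 0.09), with edgeR adjusted p between 0.0289 and 0.0368. Idi1 did not overlap between groups. Of 15 fits that each left out a single library, 6 called Lss and 7 called each of Stard4, Idi1 and Fdft1, while Hmgcs1 and Insig1 were called in all 15. All 7 were higher within each run of library IDs. Without the libraries of high marker score only Hmgcs1 and Insig1 were called, the median of the list was 0.32 and 23 differences were again positive. Hmgcs1 lies beside Nnt, another called gene, on chromosome 13 (below).

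The promoters of these genes were searched for the sterol response element, TCACCCCAC, on both strands, in windows from 250 bases before to 50 after the RefSeq transcript start. Of the 7, 4 had an entry in the promoter table used here (Hmgcs1, Idi1, Lss and Insig1), and Hmgcs1 alone held the letters, starting 137 bases before its start. They are shown because Hmgcs1 had the smallest p of the list. In the stretch at chr13:119690174-119690262 on the plus strand (GRCm38.p6, RefSeq) the match is in capitals.
Hmgcs1: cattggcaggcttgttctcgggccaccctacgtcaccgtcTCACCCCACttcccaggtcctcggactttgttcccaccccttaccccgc
Of 32544 mouse promoters of that length, 181 (0.556%) held the exact letters. The match is a description of the sequence and says nothing of binding in these hearts.

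Fatty acid synthesis gave a single call (4.55% of the list, beside 1.18% over all genes). Scd1, the desaturase that makes oleate, was at 2.21, 4.07 and 6.79 CPM in wild type and 5.43, 12.8 and 20.1 CPM in the triple knockout. Replicate 6 overlapped wild type, and replicate 1 was the highest. Scd1 rose 2.81-fold (1.49 ± 0.29, edgeR adjusted p = 0.00456), while 21 other genes of the list did not pass the test and its median was 0.19. Without the libraries of high marker score the difference was 1.14 (edgeR adjusted p = 0.205). Acaca, acetyl-CoA carboxylase, was at 0.35 ± 0.10 (edgeR adjusted p = 0.0936). Among 31 genes of fatty acid oxidation only Esrrb, an orphan nuclear receptor, changed (-1.13 ± 0.22, edgeR adjusted p = 0.00379).

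Cartilage-type matrix genes, which embryonic valves share with cartilage, contained 3 that fell of 21 tested. Acan, the large proteoglycan aggrecan, was at 7.95, 14.1 and 19.1 CPM in wild type and 3.25, 4.45 and 8.61 CPM in the triple knockout. The groups met only through the lowest wild-type library, replicate 1, and the highest triple-knockout library, replicate 5. Acan fell 3.03-fold (-1.60 ± 0.23, edgeR adjusted p = 0.000139). Comp, a pentameric matrix glycoprotein, ran from 2.26 through 5.24 to 7.88 CPM in wild type and from 0.551 through 1.43 to 2.46 CPM in the triple knockout (-1.73 ± 0.37, edgeR adjusted p = 0.0105).

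Col2a1, the fibrillar collagen of cartilage, was at 87.2, 161 and 216 CPM in wild type and 39.5, 61.0 and 128 CPM in the triple knockout. Replicates 1 and 7 of the triple knockout were the highest and lay inside the wild-type range. Col2a1 fell 2.16-fold (-1.11 ± 0.27, edgeR adjusted p = 0.0307), and by 1.53 without the libraries of high marker score (edgeR adjusted p = 0.00107). Col11a1, a minor cartilage collagen, was at 0.61 ± 0.27 (edgeR adjusted p = 0.375), and the median of the list was -0.04.

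None of 44 genes of the atrioventricular cushions and valves was called, by edgeR over all genes, by DESeq2 or by limma on FPKM values, and 6 had an unadjusted edgeR p under 0.05, 3 in each direction, beside 1504 of 13941 over all genes. Their median was -0.09. The smallest p values were those of Id2, a target of BMP signals (-0.33 ± 0.11), Bmp5 (0.44 ± 0.17), the BMP-induced inhibitor Smad6 (-0.30 ± 0.12) and Bmp4 (0.23 ± 0.10), with edgeR adjusted p of 0.170, 0.290, 0.290 and 0.350. Foxc1, a forkhead factor of the second heart field and outflow tract mesenchyme, fell from 22.1 to 36.6 CPM down to 14.1 to 33.05 CPM (-0.59 ± 0.14, edgeR adjusted p = 0.0289). Its highest triple-knockout library was replicate 1, and the other 6 were at 18.8 CPM or lower. Among 33 cardiac transcription factors Irx6, an Iroquois homeobox gene, fell (-1.31 ± 0.30, edgeR adjusted p = 0.0215), from 5.71 to 11.9 CPM down to 2.09 to 7.88 CPM. Irx3 was at -0.72 ± 0.20 (edgeR adjusted p = 0.0710), Hopx at -0.51 ± 0.17 (edgeR adjusted p = 0.178) and Myocd, the SRF coactivator myocardin, at -0.41 ± 0.13 (edgeR adjusted p = 0.145).

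Genes next to the lost kinases in the receptor pathway were read in 4 lists, beside the 1.18% called over all genes. The called share was 0% for other kinases and arrestins, 2.38% for receptors, 0% for G protein subunits and RGS proteins and 2.56% for cAMP signalling. None of 5 other GPCR kinases and arrestins was called by edgeR, DESeq2 or limma, and Grk4 alone had an unadjusted p under 0.05. Grk4 was at -0.70 ± 0.29 (edgeR adjusted p = 0.343), with a single wild-type library at 206 CPM, while Arrb1 and Arrb2, the beta-arrestins, were at 0.10 ± 0.09 and 0.15 ± 0.12 (edgeR adjusted p = 0.743 and 0.720). Of 42 receptors Celsr1, an adhesion receptor of planar cell polarity, was the only called gene. It rose from 70.0 to 115 CPM to 115 to 143 CPM (0.47 ± 0.12, edgeR adjusted p = 0.0384; 0.157 with offsets corrected for exon length). None of 38 G protein subunits and RGS proteins was called by these 3 tools, with 4 at an unadjusted p under 0.05, the smallest that of Rgs3 (-0.22 ± 0.08, edgeR adjusted p = 0.248). Of 39 genes of cAMP signalling Bves alone was called, and the phosphodiesterase gene Pde10a was at 0.96 ± 0.26 (edgeR adjusted p = 0.0614).

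Of 24 Hedgehog genes none was called by edgeR, DESeq2 or limma, 4 had an unadjusted edgeR p under 0.05, all higher, and the median was 0.15, or -0.05 without the libraries of high marker score. Gli1, the transcription factor that Hedgehog signals induce, was at 22.4, 16.5 and 30.1 CPM in triple-knockout replicates 1, 3 and 7 and at 0.758 to 5.54 CPM in the other 4. In wild type it ran from 0.222 to 12.3 CPM, the highest in replicate 4, the wild-type library with the highest lung and foregut score. Its difference was 2.22 ± 0.88 (edgeR adjusted p = 0.303), and 0.03 without replicates 1, 3 and 7. Foxf1, a foregut mesenchyme factor, and Myh11, a smooth muscle myosin, were high in the same libraries, at 25.6, 12.1 and 32.8 CPM and at 209.6, 124 and 181 CPM, and neither passed the test (edgeR adjusted p = 0.167 and 0.251).

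The defining lung, foregut, liver and thymus markers gave 0 calls among 22 tested with edgeR, DESeq2 and limma, 10 at an unadjusted p under 0.05, all higher, and a median of 1.33, or 0.50 without the libraries of high marker score. Those libraries were picked by the score of this same list, so a smaller median without them was set by that choice. Members with few or no reads in most wild-type libraries, Cldn6 among them, entered the median through libraries in which they were high. The summed level of all 33 members, tested or not, was 26.04 to 118 CPM in wild type and 40.5 to 301 CPM in the triple knockout. The exact permutation test of their mean level by library gave a two-sided p of 0.0597 (difference 0.59 log2, adjusted p = 0.219 over the 11 marker lists). Neural crest, neuron and Schwann cell genes had a median of 0.56 over 20 tested, or 0.03 without the libraries of high marker score. All 32 members summed to 148 to 211 CPM in wild type and 165 to 431.5 CPM in the triple knockout. Their mean level differed by 0.49 log2 (two-sided exact permutation p = 0.0417, adjusted p = 0.219). Gap43, a growth cone protein of axons, rose from 14.6, 18.4 and 21.98 CPM to 22.7, 25.2 and 35.3 CPM (0.55 ± 0.11, edgeR adjusted p = 0.00409). Its groups did not overlap. The neurofilament gene Nefl was at 53.4 and 24.5 CPM in triple-knockout replicates 1 and 7 and at 2.87 to 11.03 CPM in the others, and was not called (1.88 ± 0.52, edgeR adjusted p = 0.0772).

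**Figure D4:**
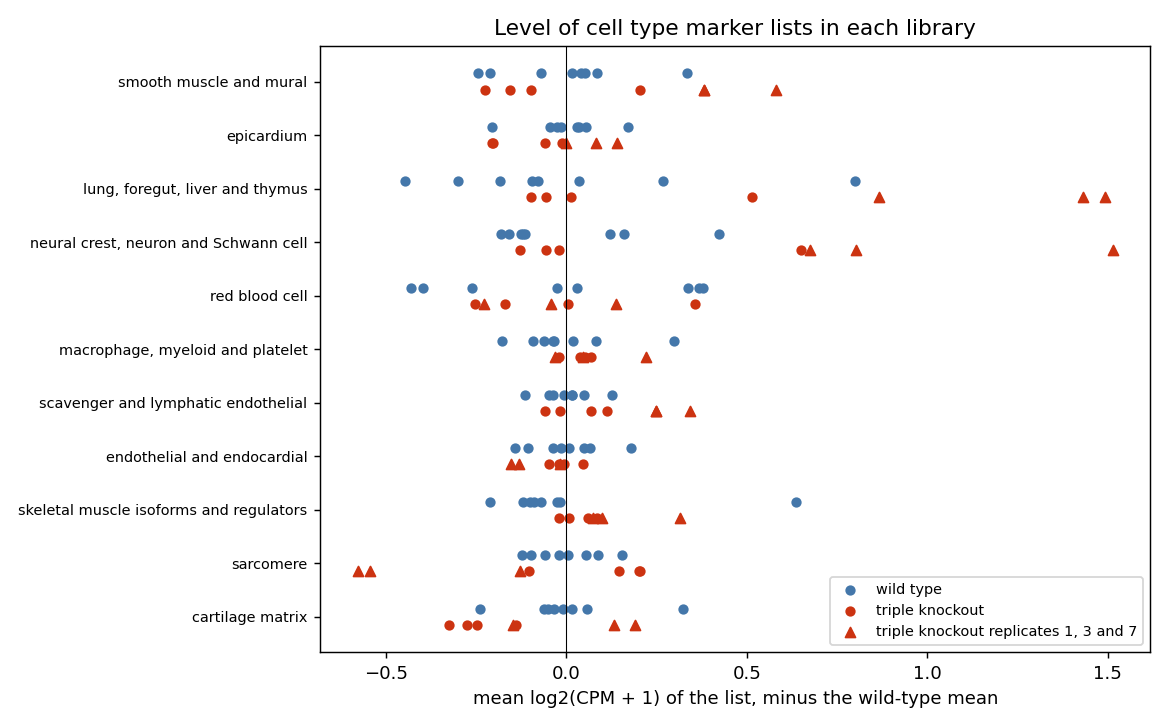
Mean log2(CPM + 1) of each marker list in every wild-type and triple-knockout library, set against the wild-type mean; triangles mark triple-knockout replicates 1, 3 and 7. These 3 libraries are the highest of their group for lung and foregut markers, and replicates 1 and 7 the lowest for sarcomere genes.

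Endothelial and endocardial genes held 1 call of 35, Npr3 (2.86%, beside 1.18% over all genes), and a median of -0.08. Scavenger and lymphatic endothelial genes moved in both directions, 3 higher and 2 lower of 14. Stab2, a hyaluronan-clearing scavenger receptor, was at 0, 2.54 and 3.66 CPM in wild type and 5.31, 7.47 and 11.3 CPM in the triple knockout, with no overlap. Stab2 rose 3.33-fold (1.74 ± 0.35, edgeR adjusted p = 0.00753), and was the only called gene of the list without the libraries of high marker score (1.71, edgeR adjusted p = 0.0408). Lyve1, a hyaluronan receptor of lymphatic and endocardial cells and of some macrophages, rose by 0.98 ± 0.24 and the mannose receptor gene Mrc1 by 0.77 ± 0.17 (edgeR adjusted p = 0.0345 and 0.0124). Both were highest in triple-knockout replicates 1, 3 and 7. The lectin genes Clec4g and Colec11 fell by 1.66 ± 0.42 and 1.07 ± 0.27 (edgeR adjusted p = 0.0416 and 0.0467), and were called in 1 and 2 of 15 fits that each left out a single library.

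Among 21 macrophage, myeloid and platelet genes, 2 fell, while the median was 0.22, with 14 differences positive and 7 negative. At an unadjusted edgeR p under 0.05, 4 were higher and 4 lower. Lyz2, lysozyme of macrophages, was at 15.2, 20.6 and 23.2 CPM in wild type and 4.13, 9.50 and 11.7 CPM in the triple knockout, without overlap (-1.14 ± 0.24, edgeR adjusted p = 0.00918). It shares reads with its near-identical copy Lyz1 and is uncertain for that reason. Itga2b, the platelet integrin, fell by 0.84 ± 0.21 (edgeR adjusted p = 0.0379). Csf1r, the receptor that macrophages depend on, was at 0.40 ± 0.12 (edgeR adjusted p = 0.122). The summed level of the list was 177 to 266 CPM in wild type and 205 to 266 CPM in the triple knockout. Of 18 red cell genes none was called by edgeR, DESeq2 or limma, and none had an unadjusted edgeR p under 0.05.

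Several further genes had small p values, all but Unc5a outside the lists. Ndrg4, a cytoplasmic protein of heart muscle needed for its growth in fish, was at 241, 294 and 350.1 CPM in wild type and 98.6, 153 and 167 CPM in the triple knockout. Its groups were far apart, and it fell 2.1-fold (-1.07 ± 0.14, edgeR adjusted p = 1.98e-05). Tmem88b, a relative of a Wnt-inhibiting membrane protein of cardiac progenitors, fell 3.23-fold from 6.11 to 9.96 CPM down to 1.82 to 3.03 CPM (edgeR adjusted p = 5.41e-06). Unc5a, a netrin receptor of axon guidance, fell 4.04-fold from 3.26 to 8.15 CPM down to 0.138 to 2.58 CPM (edgeR adjusted p = 0.00363). With Slit2 it made 2 calls of 46 axon guidance genes, whose median was 0.06. Other genes that fell without overlap were Ppp1r1b, an inhibitor of protein phosphatase 1 (-1.001), the nucleoside diphosphate kinase gene Nme6 (-0.77), the radial spoke gene Rsph3a (-1.41), the HMG-box gene Tox3 (-0.90), the scaffold gene Disc1 (-1.07) and the leucine-rich repeat gene Lrtm1 (-1.52), with edgeR adjusted p between 0.000361 and 0.00121.

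Genes that rose included Sparcl1, a matricellular relative of osteonectin, which went from 45.3, 81.8 and 121 CPM to 115, 191 and 203 CPM. The groups overlapped only between wild-type replicate 4 and triple-knockout replicate 6, and Sparcl1 rose 2.09-fold (edgeR adjusted p = 0.000981). Entpd1, the ectoenzyme that breaks down extracellular ATP, rose by 0.90 ± 0.14 from 16.6 to 29.4 CPM to 33.4 to 49.9 CPM (edgeR adjusted p = 0.000323). Cadm1, an adhesion molecule, rose by 0.82 ± 0.12 from 12.4 to 22.1 CPM to 22.3 to 31.7 CPM (edgeR adjusted p = 0.000200). Tuba1c, an alpha-tubulin whose family holds near-identical copies and is uncertain for that reason, was at 16.0 to 35.6 CPM in wild type and 58.9 to 107 CPM in the triple knockout (1.44 ± 0.19, edgeR adjusted p = 4.17e-05). Glo1, glyoxalase, rose by 0.62 ± 0.10 (edgeR adjusted p = 0.000365).

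Growth, stress and imprinting lists are given beside the 1.18% called over all genes. None of 39 S phase, 37 mitosis, 33 glycolysis and hypoxia or 31 stress genes was called by edgeR or limma, with 4, 2, 3 and 1 at an unadjusted edgeR p under 0.05 and 0, 0, 1 and 1 called by DESeq2. Ctgf, a matricellular target of YAP and SRF, fell by 0.64 ± 0.14 from 73.8 to 145 CPM down to 54.0 to 81.0 CPM (edgeR adjusted p = 0.0126). With Ankrd1 it made 2 calls of 29 Hippo-TEAD genes and was the only call of 27 immediate early genes. Ccng1, a target of p53, fell by 0.39 ± 0.10 (edgeR adjusted p = 0.0455) and Tagln, an actin-binding protein of smooth muscle, by 0.49 ± 0.11 (edgeR adjusted p = 0.0182). Of 32 imprinted genes the paternally expressed zinc finger gene Peg3 rose by 0.51 ± 0.11 and the maternally expressed cell cycle inhibitor gene Cdkn1c fell by 0.54 ± 0.13 (edgeR adjusted p = 0.0105 and 0.0266). None of 24 Notch or 45 Wnt genes was called by edgeR or limma, with 3 and 14 at an unadjusted edgeR p under 0.05 and 1 and 3 called by DESeq2, and the Wnt receptor gene Fzd8 came nearest (-0.59 ± 0.15, edgeR adjusted p = 0.0506). Aldh1a7, an aldehyde dehydrogenase gene, was the only called gene of 20 for retinoid and aldehyde metabolism (3.00 ± 0.76, edgeR adjusted p = 0.0452; 1.98 and adjusted p = 0.313 without the libraries of high marker score).

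A list of 60 nuclear genes of the respiratory chain, which does not hold the called complex I genes Ndufc1 and Ndufa12, gave no call by edgeR or limma, with 52 differences negative, a median of -0.19 and 9 having an unadjusted edgeR p under 0.05. Uqcrq, a subunit of complex III, was the nearest (-0.56 ± 0.16, edgeR adjusted p = 0.0845) and the only call of DESeq2. Their summed level was 12990 and 12600 CPM in triple-knockout replicates 1 and 7, 15320 to 20980 CPM in the other 5 and 17100 to 21050 CPM in wild type. Without the libraries of high marker score the median was 0.01 and 29 differences were negative. Over all genes tested, the difference between groups moved with exon length: its median was -0.13 for 236 genes under 500 bases and 0.09 for 667 genes over 8000 bases. Any part of exon length or of the libraries of high marker score in the respiratory list was not tested. With offsets corrected for exon length the median of the respiratory list was -0.06, 174 genes were called in all and 143 of the 165 were among them. In that fit 22 of the 165 were no longer called, Ndufc1, Mrpl52 and Hist1h2af among them.

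**Figure D5:**
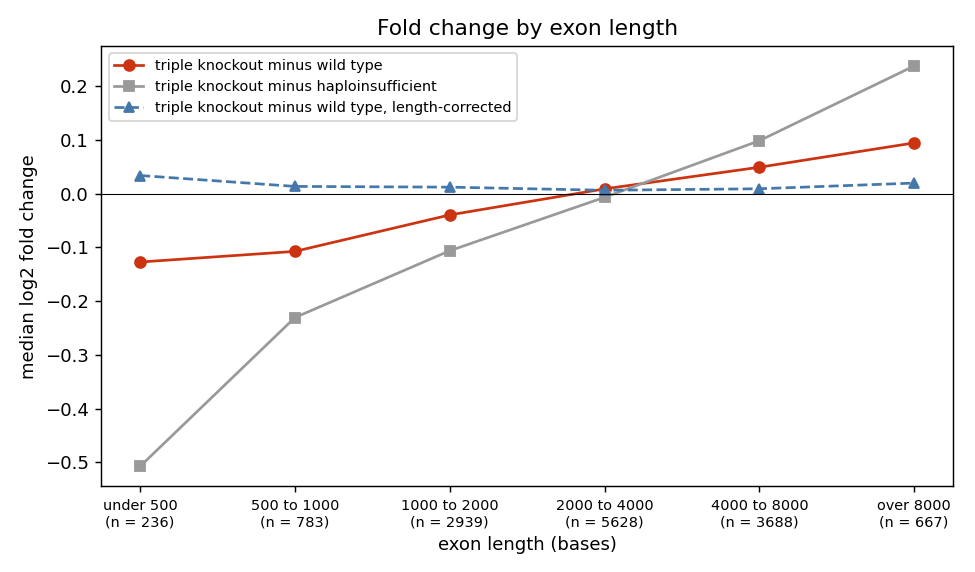
Median log2 difference (vertical) of genes grouped by exon length in bases (horizontal), for triple knockout against wild type and against haploinsufficient. The medians rise from -0.13 to 0.09 and from -0.51 to 0.24 with length, and lie near 0 after correction of the first comparison.

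The RNA of ribonuclease P gave the most abundant call. Rpph1 was at 13570 to 20150 CPM in wild type and 4199 to 6642 CPM in the triple knockout, 2.99-fold lower (edgeR adjusted p = 5.21e-07). Its relatives Rprl3, Rprl2 and Rprl1 were at 6.25 to 136, 0.0896 to 2.57 and 0 to 0.859 CPM in wild type and at 1064 to 2115, 32.1 to 48.6 and 2.76 to 11.4 CPM in the triple knockout. None of the 4 overlapped between groups. Reads can be divided among such near-identical genes by the counting, so these 4 values are uncertain. Pop4, a protein subunit of the same enzyme, was among the genes that fell, and was chosen for naming after its value was seen.

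Called genes were also located (mm10). Within 10 Mb of Adrbk1, Grk5, Grk6 and Nkx2-5 lay 0 of 215, 1 of 45, 1 of 128 and 4 of 333 tested genes that were called, against 159 of 13220 elsewhere (1.20%). They were Csf2ra near Grk5, Unc5a near Grk6, and Glo1, Neurl1b, Dnahc8 and Tnfrsf12a near Nkx2-5. In all, 61 of the 165 lay within 1 Mb of another called gene, in 25 groups whose spans held up to 43 tested genes. Whether gene density alone gives as many was not tested. On chromosome 4, 4 of 22 tested genes in a span were called (Mmp23, Tmem88b, Gm5801 and Fam132a). On chromosome 17, between 5941280 and 6450994, 4 of 8 tested genes were called: Tmem181a (0.90), Dynlt1b (1.90) and Tmem181b-ps (1.15) rose and Synj2 (-0.48) fell. The Tmem181 and Dynlt1 genes have near-identical copies and are uncertain. On chromosome 13, between 119334317 and 119708077, 3 of 5 were called: Hmgcs1, the gene model Gm7120 (-1.03) and Nnt, the mitochondrial transhydrogenase, which rose from 177 to 224 CPM to 224 to 343 CPM (0.55 ± 0.12, edgeR adjusted p = 0.0117). Kcne1 and Rcan1 are neighbours on chromosome 16, and Tnni2, Tnnt3 and Cdkn1c lie together on chromosome 7. These groups were chosen after their values were seen. Wdfy1, an endosomal adaptor of Toll-like receptors on chromosome 1, had no called neighbour and did not overlap between groups, at 16.2 to 23.2 CPM in wild type and 39.7 to 48.9 CPM in the triple knockout (2.24-fold higher, edgeR adjusted p = 8.99e-10). The labels give a strain but no substrain or breeding scheme, and the engineered alleles and the chromosome segments bred with them cannot be told apart.

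By their labels, triple-knockout and haploinsufficient hearts differ in the second Grk2 allele, and these 2 groups were compared. Summed Grk2 exons overlapped between them, at 21.8 to 57.5 CPM in haploinsufficient libraries and 26.4 to 42.8 CPM in triple-knockout libraries. How far the loss of Grk2 itself differed between these groups was not tested. Haploinsufficient hearts themselves differed from wild type at 312 of 13941 genes (2.24%). Of the 165, 161 had the same direction there and 97 were also called. The same wild-type libraries entered both comparisons, so the 2 are not independent. Between triple-knockout and haploinsufficient hearts 55 of 13941 were called (0.395%), and 6 of these were among the 165. DESeq2 called 14 of the 165, and edgeR with offsets corrected for exon length called none, while 2138 of all genes had an unadjusted p under 0.05 in the main fit. The 6 were the histone gene Hist1h2af (-1.24), the complex I genes Ndufc1 (-0.91) and Ndufa12 (-0.73), Rpph1 (-0.83), the mitochondrial ribosome gene Mrpl52 (-0.56) and Col6a6, a chain of collagen VI (0.89). Their edgeR adjusted p ran from 0.00573 to 0.0476. Apart from Col6a6 they have less than 1000 bases of exon each, the range in which the median of all genes was -0.51 to -0.23 in this comparison.

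Col6a6 was at 24.1, 47.1 and 58.1 CPM in wild type and 51.1, 73.9 and 154 CPM in the triple knockout, with a haploinsufficient mean of 48.1 CPM. Replicates 1, 3 and 7 were the highest, and without them Col6a6 differed from wild type by 0.56 (edgeR adjusted p = 0.321). For 6 other genes the haploinsufficient mean was set beside the triple-knockout mean. It was 34.1 against 58.4 CPM for Tnnt3, 151 against 120.1 CPM for Tnnt1 and 71.3 against 68.0 CPM for Nppb. For Hmgcs1 it was 118 against 132 CPM, for Acan 5.01 against 4.86 CPM and for Stab2 3.41 against 7.85 CPM. None of these 6 passed the edgeR test between the 2 groups, with Stab2 at 1.13 (edgeR adjusted p = 0.138) and Tnnt3 at 0.80 (edgeR adjusted p = 0.120).

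The libraries carry IDs in 2 runs, 1 to 12 and 19 to 30. All 165 kept their direction in the second run, as did all of the 163 that could be tested in the first. Both runs entered the fit that chose these genes, so their direction in each was largely set by that choice. Fitted alone, IDs 1 to 12 (4 wild-type and 3 triple-knockout libraries) gave 50 called genes and IDs 19 to 30 (4 and 4) gave 51. Tnnt3 differed by 3.10 and 3.13 in the 2 runs, Tnnt1 by -1.41 and -1.24, Acan by -1.56 and -1.62 and Hmgcs1 by 0.90 and 0.49. Nppb differed by -1.25 and -0.45 and Scd1 by 2.35 and 0.84. The interaction of genotype with run was called for 24 of 13941 genes (0.172%), and Rprl3 alone of these was among the 165.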

How the data were processed

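Per the labels' protocols, Trizol was used to take RNA from snap-frozen hearts, and libraries freed of ribosomal RNA were read from one end without strand. Overlapping and antisense genes can therefore not be told apart. The deposited table holds read counts for 23512 rows and 23 libraries. The authors aligned reads to mm10 (TopHat2 version 2.0.10, with Bowtie2) and counted them with HTSeq, and FPKM values were made with Cufflinks (version 2.1), per the submitters' processing notes. The deposited FPKM values served in an alternative only. Other versions are not given in the sources used here.

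Counts were tested with edgeR (version 4.0.16, R version 4.3.3) by its quasi-likelihood method. All 23 libraries entered the fit, which had one coefficient for each group and another for the run of library IDs (1 to 12 or 19 to 30). The 59 rows of the targeted genes and Cre were left out. Genes passed the expression filter at a minimum count of 10 and a total of 15, library sizes were TMM-scaled, and two-sided p-values were adjusted by the Benjamini-Hochberg method over 13941 genes, with a threshold of 0.05. The filter took libraries of any group, so a gene nearly absent from wild type could pass through the other groups. Rose, fell, changed and called refer to that threshold. CPM values use the scaled library sizes, differences are log2 triple knockout minus wild type, and ± is their standard error. Mean marker levels were compared by exact permutation of 8 against 7 libraries. Mean and summed levels of a list took every member with a row of counts, also members that did not pass the filter. Medians and calls of a list cover the members tested. Floors cover counting error only.

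The comparison, lists and tests were chosen with earlier results of these data known. Genes named are the 15 with the smallest p per direction, called list members and up to 4 others per list, up to 4 near each targeted gene, called genes that differ from haploinsufficient, and up to 4 of the interaction; unnamed gene models and sex-linked controls were left out, and a few of the genes are not reported here. Alternatives were DESeq2 (version 1.42.0), limma (version 3.58.1) on log2(FPKM + 0.1), no filter, other scaling, no run term, each run alone, only these groups, a replicate block, a sex term, a marker score term, no libraries scoring over 1.5 and leaving out each library. After the data were seen, fits without libraries scoring above wild type and with offsets corrected for exon length were added. Tested on simulated data of 13811 genes for this comparison, the fit recovered 48%, 90%, 94% and 96% of genes shifted 1.5-, 2-, 3- and 4-fold, with 7 false calls among 171. Between replicates of a group, chi-square per degree of freedom was 6.10 or more, so no pair was counted as 1 sample. Promoter sequences are from RefSeq (GRCm38.p6). Gene positions and exon lengths are from the annotation that the authors deposited with the series.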

Additional observations from a re-analysis of the deposited data

Results flagged for a closer look

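Single libraries stood away from their group in 6 of 82 groups examined, where chance gives about 1 in 20. Acan was at 7.95 CPM in wild-type replicate 1, the next lowest at 12.9, and at 8.61 CPM in triple-knockout replicate 5, the next highest at 4.82, so that these 2 libraries made the only overlap between the groups. Fhl1 was at 107 CPM in wild-type replicate 4, the next lowest at 138.5. The mean level of the skeletal muscle list was 0.64 above the wild-type mean (log2) in wild-type replicate 5 and 0.32 above it in triple-knockout replicate 1. Macrophage, myeloid and platelet markers were 0.22 above it in triple-knockout replicate 1.

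The difference between triple knockout and wild type itself differed between the 2 runs of library IDs for 24 genes (edgeR interaction, adjusted over all genes), and it was higher in IDs 19 to 30 for each of them. The 4 with the smallest p were the mitochondrial transfer RNA genes mt-Td (6.48 log2), mt-Tn (3.22) and mt-Tg (4.70) and the gene model 2900060B14Rik (2.01). Of the 24, 8 are encoded by the mitochondrial genome and 11 are small nucleolar or Cajal body RNAs, and their median exon length was 123.5 bases against 2940.0 for all genes. With offsets corrected for exon length the interaction was called for 2 genes. A cause was not tested.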

How the results depend on the processing

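No call reversed in any alternative tried, all of which reuse libraries of the fit that chose the calls. Against 165 called genes, fitting only the groups compared gave 295, DESeq2 284, IDs 1 to 12 alone 50, IDs 19 to 30 alone 51 and leaving out the libraries scoring above wild type 82; fewer samples enter the last 3, and otherwise the cause was not tested. Other scaling, no filter, no run term, a sex term, limma on FPKM, a marker score term and exon length gave 115 to 217. Leaving out each library in turn gave 116 to 172, and 99 of the 165 were called every time. Calls lost without any of several single libraries of either group include Clec4g, called in 1 of these 15 fits, Colec11 and Csrp3 (2), Tnfrsf12a (3), Csf2ra, Celsr1, Gm7120, Aldh1a7 and Ccng1 (4), Itga2b (5), Col2a1, Dnahc8, Lss and Lyve1 (6), Idi1, Foxc1, Fdft1 and Stard4 (7), Neurl1b and Cdkn1c (9), Ndufa12 (10) and Irx6 (11), with no change of direction and an adjusted p of up to 0.176 (Aldh1a7). Tagln was lost without triple-knockout replicate 1 or 3, Mrpl52 without 2 or 7 and Npr3 without 2. Among the 165, calls against haploinsufficient went from 6 to 14 with DESeq2 and to 0 with exon length offsets. The interaction with ID run went from 24 to 93 in only the groups compared and 2 with exon length offsets. As summed CPM the mean level turned direction for sarcomere (4094), skeletal muscle (-181.3) and smooth muscle (-276.3) markers, none of them past the threshold either way. Sign also turned for 3 genes that were not called: Col11a1 (-0.0915 without the libraries scoring above wild type), Arrb2 (-0.0084 in IDs 19 to 30 alone) and Gli1 (-0.1245 with a marker score term). Of all called genes, 41.2% were lower in IDs 19 to 30 alone, against 58.8% in the main fit.

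Replicate numbers do not pair the libraries: deviations of same-numbered libraries correlated between -0.23 and 0.07, and no library correlated best with its own number. With the replicate block 131 genes were called, 108 of them among the 165. At the depth, library number and spread of these data, 48% of simulated 1.5-fold shifts were recovered.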
